A study of Homo sapiens with 32 samples.

Results

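The human genome keeps most of its KRAB zinc finger genes in tandem clusters on chromosome 19, and the 42 genes described here are the zinc finger genes listed for the clusters around ZNF568 in 19q13.12 (24 genes) and around ZNF155 in 19q13.31 (18 genes). They were chosen by symbol, and the list was split into its 2 clusters at the largest gap in the RefSeq gene order. The array held a probe set with a single symbol for 39 of them, 22 in 19q13.12 and 17 in 19q13.31, out of 19775 genes. Of these, 36 members (21 and 15) were bright enough to test among 14695 genes, which meant a log2 intensity over 5 on at least 3 of the 32 arrays. ZNF461, ZNF223 and ZNF233 were too dim, ZNF260 and ZNF790 had no probe set, and ZNF285 shared its probe set with another gene.

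Expression was read on Affymetrix HG-U133 Plus 2.0 arrays from H1299 and A549, human lung cancer lines in which the SMARCA4 gene is known to be inactivated. All cells carried a short hairpin RNA, either shLuc, directed at luciferase as a control, or S2sh7, directed at the ATPase region of SMARCA2, one of the alternative motor subunits of the SWI/SNF nucleosome remodelling complexes. H1299 cells were also labelled as carrying GFP or a SMARCA2 cDNA, which was either wild type (WT), mutated in the bromodomain (BRD) or without ATPase activity (ATPdead), and A549 cells GFP or the same 3 forms of SMARCA4. H1299 had 8 groups of 3 arrays and A549 had 8 groups of 1 array. The labels call the cells stable lines and the arrays of an H1299 group biological replicates. They name no separate cultures or infections, so what was repeated is not known here. In H1299, p-values measure the spread between these samples, and how independent the samples were cannot be told. In A549, with 1 array per group, they measure departures from a sum of cDNA and hairpin effects. Those departures include any differences between cDNAs in the hairpin effect. H1299 was labelled Batch1 and A549 Batch2, so line, batch and the protein supplied cannot be told apart. A level is an average over a culture, and fewer expressing cells cannot be told apart from less RNA per cell. Precision here is limited by how many arrays there were. The brightest SMARCA2 probe set fell with S2sh7 in all 4 H1299 comparisons, with a log2 fold change of -1.30 with GFP, and in A549, with -3.02 (limma adjusted p = 0.0016). The brightest SMARCA4 probe set was also lower in H1299, by 0.60 with GFP, and higher in A549, by 0.23 (adjusted p = 0.0395). Neither probe set showed the cDNAs. In H1299 with shLuc, SMARCA2 differed from the GFP line by -0.11 in the WT line (adjusted p = 0.674), by 0.06 for BRD (0.894) and by -0.01 for ATPdead (0.978), and SMARCA4 in A549 by -0.06 between WT and BRD and the other 2 lines (adjusted p = 0.549). Whether these probe sets lie within the cDNAs was not tested, so the cDNAs are known here from the labels alone. The carcinoma keratins KRT8 and KRT18 were bright in every array (log2 9.92 or more), but the epithelial genes EPCAM and CDH1 reached at most 3.11 and 2.63 in H1299, against medians of 7.80 and 9.97 in A549. Of 6 measured leukocyte and endothelial markers, PTPRC and CDH5 stayed under log2 4 in both lines. The others were brighter in A549, where CD14 ranged from 5.08 to 6.98 and the medians of CD3E, PECAM1 and VWF were 6.04, 6.37 and 5.26. In H1299 CD14 had a median of 3.51 and the other three 5.22, 5.47 and 4.43. KRT8 itself fell with S2sh7, by 0.81 in H1299 with GFP and by 1.25 in A549, and of 4 tested leukocyte and endothelial markers 2 rose in H1299 with GFP and 1, CD14, fell in A549. Their part in the members' changes was not tested.

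KRAB zinc finger proteins bind DNA through an array of C2H2 fingers and recruit the corepressor TRIM28 through the KRAB box, which brings in the histone methyltransferase SETDB1 and heterochromatin proteins. They are best known for silencing transposable elements, and each gene cluster arose by repeated local duplication, so neighbouring members are often close copies of one another. ZNF146 and ZNF260 are exceptions in this list, since they carry fingers without a KRAB box.

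The promoters of the members are shown first, and their similarity to one another was not measured. RefSeq windows of 300 bases (250 before and 50 after an annotated start, build GRCh38.p14) existed for 36 of the 42 members, 53 windows in all because some genes have several starts. ZNF571, ZNF781, ZNF155, ZNF221, ZNF223 and ZNF233 had none. The capitals mark the letters CTGGGAA, or TTCCCAG where they lie on the other strand. ZNF568 is printed as the member with the largest fall, ZNF45, ZNF230 and ZNF222 as members of 19q13.31 that fell, ZNF573 as the member that rose in H1299, and ZNF529 as the member with the largest change in A549. They lie at chr19:36916082-36916381 on the plus strand for ZNF568, chr19:36605208-36605507 on the minus strand for ZNF529, chr19:37779537-37779836 on the minus strand for ZNF573, chr19:43935233-43935532 on the minus strand for ZNF45, chr19:44002707-44003006 on the plus strand for ZNF230 and chr19:44025129-44025428 on the plus strand for ZNF222. Each is given 5′ to 3′ on the strand of its gene.
ZNF568: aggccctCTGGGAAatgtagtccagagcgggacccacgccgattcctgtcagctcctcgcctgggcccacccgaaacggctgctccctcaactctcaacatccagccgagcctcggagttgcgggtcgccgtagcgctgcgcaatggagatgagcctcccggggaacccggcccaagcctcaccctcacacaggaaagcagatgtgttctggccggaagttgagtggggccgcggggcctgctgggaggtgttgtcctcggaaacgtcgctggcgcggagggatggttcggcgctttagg
ZNF529: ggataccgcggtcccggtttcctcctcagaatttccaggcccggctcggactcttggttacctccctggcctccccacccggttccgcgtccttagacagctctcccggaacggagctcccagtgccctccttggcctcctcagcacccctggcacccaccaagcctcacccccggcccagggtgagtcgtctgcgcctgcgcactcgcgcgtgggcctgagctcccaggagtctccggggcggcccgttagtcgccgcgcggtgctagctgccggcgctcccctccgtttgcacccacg
ZNF573: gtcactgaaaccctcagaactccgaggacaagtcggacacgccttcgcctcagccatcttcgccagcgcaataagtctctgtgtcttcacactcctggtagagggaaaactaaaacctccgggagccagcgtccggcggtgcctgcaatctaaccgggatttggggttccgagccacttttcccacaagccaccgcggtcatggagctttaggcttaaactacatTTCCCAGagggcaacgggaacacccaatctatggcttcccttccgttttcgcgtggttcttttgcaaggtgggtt
ZNF45: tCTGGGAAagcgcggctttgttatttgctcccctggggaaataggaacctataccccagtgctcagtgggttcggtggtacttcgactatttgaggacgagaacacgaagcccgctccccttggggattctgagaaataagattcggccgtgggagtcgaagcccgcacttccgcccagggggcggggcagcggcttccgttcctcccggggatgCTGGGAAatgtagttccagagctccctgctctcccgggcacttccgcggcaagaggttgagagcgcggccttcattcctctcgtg
ZNF230: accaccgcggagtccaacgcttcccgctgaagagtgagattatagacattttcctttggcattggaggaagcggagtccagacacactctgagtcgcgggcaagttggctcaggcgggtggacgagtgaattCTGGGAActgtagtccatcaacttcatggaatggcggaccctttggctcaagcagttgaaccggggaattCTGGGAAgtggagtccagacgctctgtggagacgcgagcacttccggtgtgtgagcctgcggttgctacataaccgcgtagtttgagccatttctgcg
ZNF222: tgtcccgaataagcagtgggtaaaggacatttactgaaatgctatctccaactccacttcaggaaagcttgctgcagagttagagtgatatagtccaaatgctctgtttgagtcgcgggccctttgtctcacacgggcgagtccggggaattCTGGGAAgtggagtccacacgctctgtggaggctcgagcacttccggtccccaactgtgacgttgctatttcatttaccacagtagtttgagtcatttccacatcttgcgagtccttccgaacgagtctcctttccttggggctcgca

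The letters CTGGGAA were found on either strand in a window of 28 of the 36 members (77.8%), beside 28.7% of 508 genes named ZNF with a number and 3581 of all 27305 genes with a window. By window, 13 of 15 in 19q13.31 (86.7%) and 20 of 38 in 19q13.12 (52.6%) held them, against 10.8% of all 35116 windows. A second word, GGGAANTG (N any base), which overlaps the first, was in 25 members (69.4%), 23.4% of the genes named ZNF and 9.77% of all genes. These were 2 of 3 words tried after the windows had been read (the third, longer one, was not kept), and CTGGGAA was set in capitals once both shares were known, so the shares are descriptions chosen by their values and carry no test. The 8 members that lacked CTGGGAA were ZNF146, ZNF529, ZNF382, ZNF585A, ZNF585B, ZNF793, ZNF607 and ZNF285. The letters CCGGAAGT, which ETS family factors are known to bind, were present in 11 members (30.6%), ZNF568, ZNF829, ZNF283, ZNF230 and ZNF222 among them, in 17.3% of the genes named ZNF and in 4.95% of all genes. GCCATCTT, a word known from YY1 sites, was present in 4 members (11.1%, against 4.72% of genes named ZNF and 3.52% of all genes), and ACTACAA, part of a ZNF143 site, in 3 (8.33%, against 6.69% and 3.43%). ACTACAA was searched as exact letters, and variants were not counted, such as actacat directly before TTCCCAG in the ZNF573 window. The share of members with ZNF143 sites was therefore not measured. The cyclic AMP response word TGACGTCA was in no member window, 4.53% of genes named ZNF and 2.25% of all genes. None of the searched words contains another, but they can overlap at their ends. Member windows held a median of 20 CG pairs (range 9 to 35), and all windows a median of 14. Of the windows of members that fell with S2sh7 in H1299 with GFP, 65.6% held CTGGGAA, and of those of tested members that did not fall, 46.7%. These shares count windows, not genes, and mix the clusters. In 19q13.31, where 86.7% of windows held the word, 14 of 15 tested members fell. The windows and the tested members there are different sets. The windows include the untested ZNF285, and ZNF155 and ZNF221, which fell, have none. A link between the word and the fall was not tested.

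Over all arrays of each line, those with S2sh7 included, the clusters stood at different heights in the 2 lines. Each member was placed by its percentile among all genes of an array, since the deposited intensities were distributed differently in the lines (all-gene median log2 5.80 in H1299 and 6.41 in A549). The median member of 19q13.12 lay at the 68.0th percentile in H1299 and the 27.8th in A549, and the median member of 19q13.31 at 63.8 and 38.9. In 38 of 39 members the percentile was higher in H1299, and in 35 of 39 the log2 level was higher as well, although the typical gene was dimmer there. Each gene's probe set was the brightest over all 32 arrays, 24 of them from H1299. For the 27 members with several probe sets this choice favours H1299. The share of all genes that stood higher in H1299 was not counted. ZNF829 had a mean log2 level of 8.09 in H1299 and 2.68 in A549, and ZNF382 had 7.12 and 2.60. ZNF568 stood at 6.78 in H1299 and 2.71 in A549, and ZNF781 at 7.14 and 2.91. In A549, 9 of 22 members of 19q13.12 and 3 of 17 of 19q13.31 were above log2 5 on no array, against 1 and 2 in H1299. ZNF146 was bright in both lines (11.31 and 11.17). Without replicates in A549, and with line and batch joined, these level differences were given no test.

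**Figure D1:**
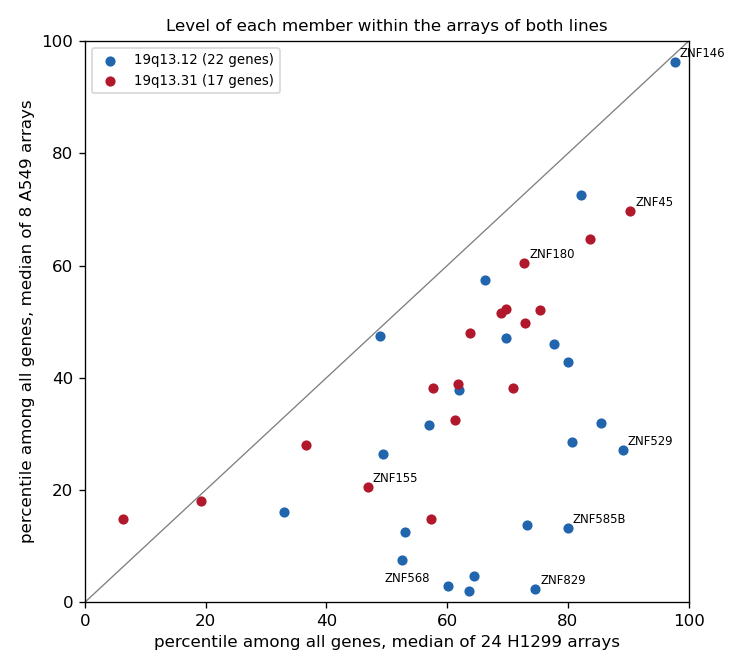
Median percentile of each of the 39 measured members among all genes of an array, in 24 H1299 arrays (x axis) and 8 A549 arrays (y axis), coloured by cluster, with the line of equal percentiles. All but 1 point lie below the line, and ZNF568 and ZNF829 lie at 2.93 and 2.33 in A549 while they stand at 60.1 and 74.6 in H1299.

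With S2sh7 the clusters fell in H1299. In the GFP line 27 of 36 tested members were lower and 1 was higher, 13 lower and 1 higher of 21 in 19q13.12 and 14 lower of 15 in 19q13.31 (limma, adjusted p under 0.05 over all 14695 genes). Over all genes tested 16.1% were lower and 13.6% higher. The median log2 fold change was -0.22 in 19q13.12 and -0.41 in 19q13.31, against 0.01 for all genes. With each array centred on its median, 11.5% of all genes were lower and 22.6% higher, and the members' count was again 27 lower and 1 higher. Falls of 0.5 or more on the log2 scale were found in 12 members, 6 in each cluster. Such falls were not counted over all genes.

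ZNF568, whose mouse relative is known to silence a placental Igf2 transcript, changed most. Its 3 arrays with shLuc and GFP read log2 7.58, 7.27 and 7.33, and the 3 with S2sh7 and GFP read 6.09, 6.08 and 6.13. The groups lay far apart, and the mean intensity went from 168 to 68.6. This was a log2 fold change of -1.29 (SE 0.0761, adjusted p = 1.12e-10), followed by -1.16 with WT, -0.97 with BRD and -1.05 with ATPdead. Its other bright probe set gave -0.76 with GFP, and the remaining 3 were under log2 4. ZNF829 starts within the same window on the opposite strand. Its arrays read 8.40, 8.35 and 8.34 with shLuc and 7.82, 7.87 and 7.82 with S2sh7, again without overlap, a log2 fold change of -0.53 (SE 0.0388, adjusted p = 2.69e-09).

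ZNF383, read by a single probe set, stood at 6.92, 6.94 and 6.85 with shLuc and GFP and at 5.91, 6.12 and 6.01 with S2sh7 (log2 fold change -0.89, SE 0.0648, adjusted p = 2.65e-09). The highest S2sh7 array lay well under the lowest control. ZNF571 was the third largest fall of its cluster, from 6.54, 6.39 and 6.41 to 5.45, 5.86 and 5.66 (-0.79, SE 0.0923). ZNF570 followed with -0.65 (SE 0.0623), the KRAB repressor ZNF382 with -0.52 (SE 0.0543) and ZNF566 with -0.44 (SE 0.0684). The remaining called falls of 19q13.12 were those of ZNF420 (-0.40), a gene known as a negative regulator of p53, and of ZNF607 (-0.37), ZNF529 (-0.34), ZNF567 (-0.22), ZNF569 (-0.21) and ZNF585B (-0.17). ZNF573 went the other way. Its arrays read 8.21, 8.25 and 8.22 with shLuc and GFP and 8.54, 8.44 and 8.37 with S2sh7, all 3 above the controls (0.23, SE 0.0487, adjusted p = 0.00145). Its other probe set was under log2 4 in H1299 and had an SE of 0.111 on a value of 0.17. ZNF565, ZNF146, ZNF345, ZNF585A, ZNF793, ZNF540 and ZNF781 did not pass the test, with fold changes from -0.18 to 0.02. ZNF585A and ZNF585B are close copies, so their probe sets may share signal.

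In 19q13.31 the brightest member, ZNF45, read 10.03, 9.96 and 9.97 with shLuc and GFP and 9.01, 9.10 and 9.10 with S2sh7. The mean intensity went from 1015 to 538 without any overlap (log2 fold change -0.92, SE 0.0341, adjusted p = 1.32e-13), and its second probe set gave -0.94. ZNF155, after which the cluster is named here, was dimmer, with 6.07, 5.90 and 5.97 against 5.15, 5.24 and 5.20 (-0.78, SE 0.0609, adjusted p = 6.39e-09). ZNF283 read 8.14, 8.01 and 8.00 with shLuc and 7.13, 7.29 and 7.39 with S2sh7 (-0.78, SE 0.0764). For both genes every S2sh7 array was below every control array. ZNF230 fell by 0.66, ZNF222 by 0.52 and ZNF225 by 0.50 on the same scale. ZNF284 (-0.42), ZNF221 (-0.41), ZNF224 (-0.40), a KRAB repressor known to act on the aldolase A promoter, and ZNF226 (-0.34) fell less, and ZNF235 (-0.24), ZNF227 (-0.23), ZNF234 (-0.19) and ZNF180 (-0.14) least. ZNF229 was the exception and did not pass the test (-0.11, adjusted p = 0.176). ZNF221 was close to the filter, over log2 5 on 7 of 24 H1299 arrays.

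Along 19q13.31, the first 9 tested members, ZNF283 to ZNF225, had fold changes from -0.92 to -0.40 with GFP, and the last 6, ZNF234 to ZNF180, from -0.34 to -0.11. This division was noticed after the values were seen and was not tested. ZNF112, a gene off the list that lies among the last 6, had -0.50, outside their range. In 19q13.12 the 7 tested members between ZNF568, ZNF383 and ZNF571 had smaller changes, ZNF420, ZNF585B, ZNF569 and ZNF570 called lower and ZNF585A, ZNF793 and ZNF540 not called.

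Of 27 members with several probe sets, 18 had all of them on the same side of 0 in this comparison. ZNF226 was the clearest disagreement, since its brightest probe set gave -0.34 and the next brightest 0.11. Only 1 of its 4 probe sets was negative. Of the other called falls, 3 had a second, dimmer probe set of opposite sign. These were ZNF180 (-0.14 and 0.07), ZNF235 (-0.24 and 0.01) and ZNF585B (-0.17 and 0.05). For ZNF567 3 of 4 and for ZNF568 4 of 5 had the sign of the brightest. Probe sets with the x suffix, which may bind related transcripts, stood for 6 tested members, and 5 of these fell. Among the 26 members whose probe set carried neither that suffix nor the s suffix of shared transcripts, 18 fell, with a median of -0.29.

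**Figure D2:**
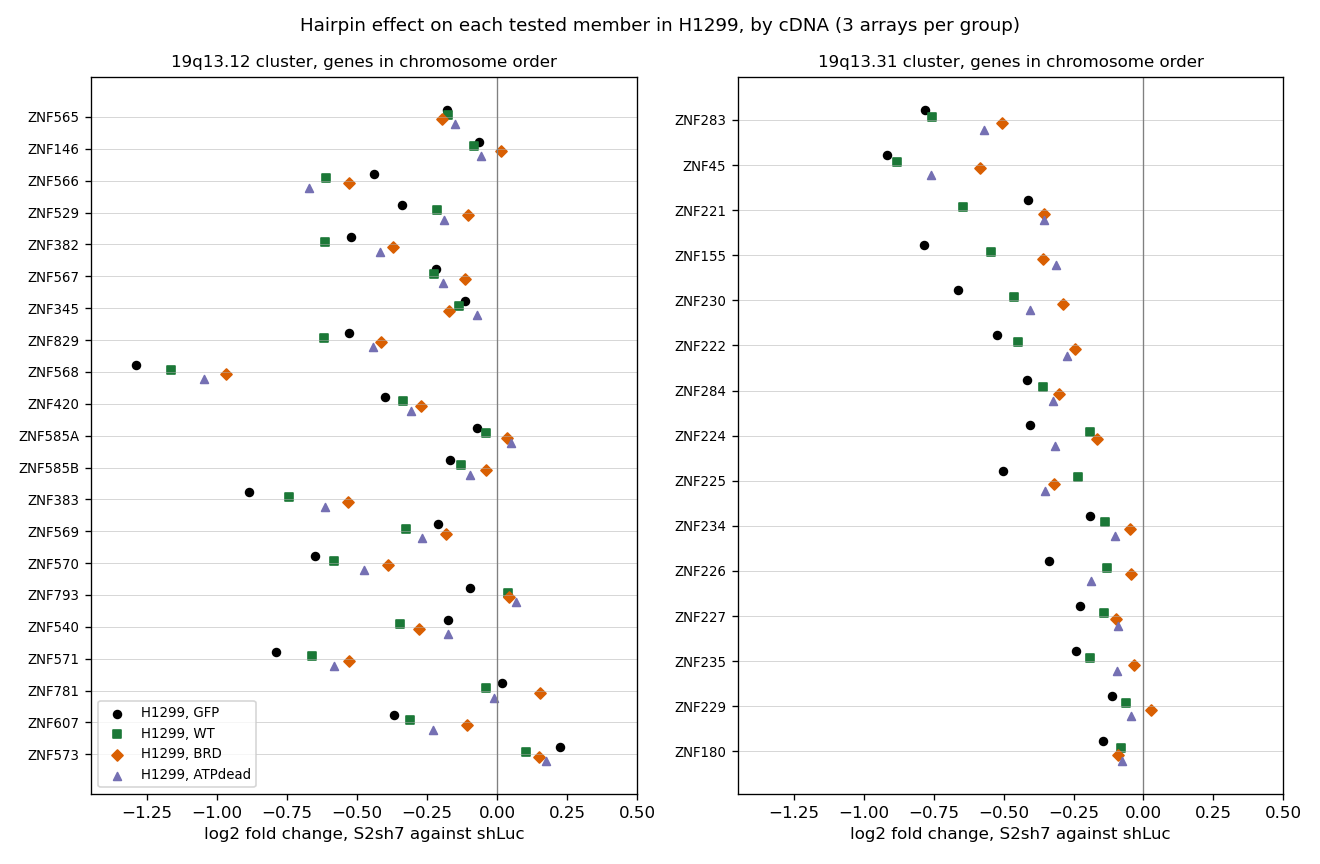
Log2 fold change of S2sh7 against shLuc in H1299 (x axis) for each of the 36 tested members in chromosome order, with 1 symbol per cDNA (mean of 3 arrays against mean of 3). ZNF568 lies furthest left, at -1.29 with GFP, and ZNF573 is to the right of 0 with all 4 cDNAs.

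The other 3 H1299 comparisons used separate arrays. With WT 26 members were lower and none higher (14 of 21 and 12 of 15, beside 11.6% of all genes lower). With BRD 20 were lower and 1 higher (11 and 9 lower, beside 12.7% of all genes lower and 11.1% higher), and with ATPdead 22 were lower and 1 higher (12 and 10 lower, beside 11.9% lower and 16.5% higher). With arrays centred on their medians, 9.77% of all genes were lower and 17.2% higher with BRD, and 18 members were lower and 2 higher. The 1 higher member was ZNF573 both times (0.15 with BRD and 0.17 with ATPdead). Median fold changes in 19q13.12 were -0.31, -0.18 and -0.19 with WT, BRD and ATPdead, and in 19q13.31 -0.23, -0.24 and -0.31. In all 4 comparisons 18 members were called lower, 9 in each cluster, and 30 had a negative fold change. Neither count was made over all genes. In the single comparisons 6505 to 6761 of 14695 genes had a negative fold change. ZNF345, ZNF585A, ZNF793, ZNF781 and ZNF229 were called in none of the 4. ZNF566 fell by 0.61 with WT, 0.53 with BRD and 0.67 with ATPdead. ZNF221 fell by 0.65 with WT, and ZNF540, not called with GFP, had -0.35 with WT (adjusted p = 0.00323).

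Whether a SMARCA2 cDNA altered the hairpin effect was tested as a difference of differences. No member passed with WT, where 1.82% of all genes passed with a higher effect than with GFP. At unadjusted p under 0.05 (limma) there were 5 of 36 members, beside 15.1% of all genes. With BRD the effect was higher, that is the fall was smaller, for 3 members of 19q13.31, beside 0.388% of all genes. ZNF45 differed by 0.33 (SE 0.0482, adjusted p = 0.00218), ZNF230 by 0.37 (SE 0.0624, adjusted p = 0.00518) and ZNF155 by 0.42 (SE 0.0861, adjusted p = 0.0246). All 15 tested members of 19q13.31 had a positive difference, but they share the GFP arrays. With only the arrays compared in the fit, 1 of the 3 calls remained, that of ZNF45 (adjusted p = 0.0488; ZNF230 0.0573, ZNF155 0.0609). With ATPdead only ZNF155 passed among the members (0.47, SE 0.0861, adjusted p = 0.0486), beside 0.0476% of all genes. That call was lost without array 1 or 3 of shLuc with GFP, array 1 or 3 of shLuc with ATPdead, any of the 3 arrays of S2sh7 with GFP, or array 1 or 2 of S2sh7 with ATPdead, leaving 0 members.

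The arrays of ZNF155 show where these differences lay. With shLuc it read 5.67, 5.79 and 5.71 in the BRD line and 5.61, 5.82 and 5.70 in the ATPdead line, all under the 3 GFP arrays. With S2sh7 it read 5.41, 5.36 and 5.32 with BRD and 5.42, 5.49 and 5.28 with ATPdead, all over the GFP arrays. So the gap narrowed from both sides. ZNF230 did likewise with BRD, from 7.23, 7.22 and 7.24 to 6.96, 7.01 and 6.85, against 7.46, 7.38 and 7.35 to 6.71, 6.74 and 6.75 with GFP.

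**Figure D3:**
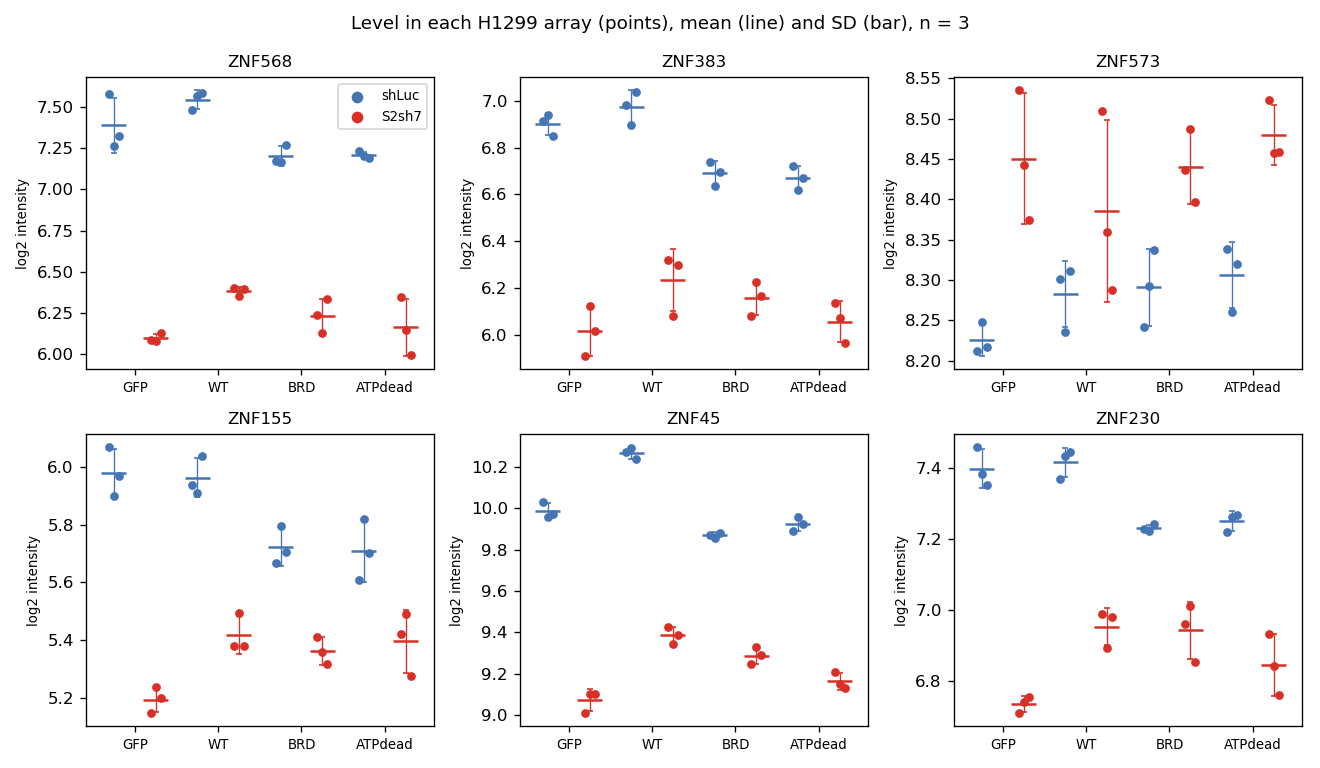
Log2 intensity (y axis) of 6 members in each H1299 array, with shLuc in blue and S2sh7 in red for each cDNA on the x axis; points are arrays, lines means and bars SD (n = 3). ZNF568, ZNF383, ZNF155, ZNF45 and ZNF230 are lower with S2sh7 in every line, without overlap, and ZNF573 is higher with S2sh7 in the means.

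Without the SMARCA2 hairpin the cDNAs changed few members by the test. WT against GFP with shLuc raised ZNF45 by 0.28 (SE 0.0341, adjusted p = 0.000188) and ZNF569 by 0.18 (SE 0.0471, adjusted p = 0.0481), beside 0.925% of all genes higher. Without any one of the 6 arrays, 1 member was called, and with only those arrays in the fit, 0. BRD against GFP lowered ZNF155 by 0.26 (SE 0.0609, adjusted p = 0.0417), beside 0.504% of all genes lower. In this comparison 33 of 36 fold changes were negative, beside 7439 of 14695 genes. At unadjusted p under 0.05 (limma) there were 13 members and 12.9% of all genes. Without any one of the 3 GFP arrays no member was called there, and without array 3 of shLuc with BRD 2 were. With only the 6 arrays compared the count was also 0. ATPdead against GFP changed no member by the test (0.0885% of all genes lower), although 33 of 36 fold changes were negative, beside 7618 of 14695 genes. At unadjusted p under 0.05 (limma) there were 14 members and 12.7% of all genes. With S2sh7, ATPdead against WT was lower for ZNF45 (-0.22, adjusted p = 0.000696), ZNF225 (-0.25, adjusted p = 0.0372) and ZNF566 (-0.26, adjusted p = 0.0432), beside 1.41% of all genes lower. This count was 1 without array 1 or 3 of S2sh7 with WT or array 3 of S2sh7 with ATPdead, and 5 without array 1 of S2sh7 with ATPdead, and it was 0 with only the arrays compared. BRD against WT with S2sh7 changed no member by the test, and 0.0612% of all genes were lower. At unadjusted p under 0.05 (limma) there were 3 members and 10.2% of all genes.

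In A549 the direction was opposite. Over the 4 cDNA pairs, S2sh7 raised 15 of 36 members and lowered none, 6 of 21 in 19q13.12 and 9 of 15 in 19q13.31, beside 12% of all genes higher. Medians were 0.27 and 0.46. The fit had 4 pairs of single arrays and 3 residual degrees of freedom. The count of calls rested on all 4 pairs, since it was 0 without the GFP pair, 0 without the ATPdead pair, 1 without the WT pair and 9 without the BRD pair. Of the 27 members lower in H1299 with GFP, 13 were higher in A549 and 14 were not called. The 9 tested members that were above log2 5 on no A549 array included none that was called (-0.09 to 0.47). Of these only ZNF155 lies in 19q13.31 and the others in 19q13.12. The A549 counts and medians of the clusters are therefore not on equal terms.

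ZNF529 changed most. With GFP it read 4.07 with shLuc and 7.17 with S2sh7, with ATPdead 4.33 and 7.17, with WT 4.16 and 5.35, and with BRD 4.20 and 5.35. All 4 S2sh7 arrays were above all 4 controls, by more with GFP and ATPdead than with WT and BRD (mean difference 2.07, SE 0.393, adjusted p = 0.0289). Its other 2 probe sets, both under log2 5 in A549, gave 0.19 and 0.12. ZNF382, whose window overlaps that of ZNF529 on the other strand, stayed between 2.46 and 2.67 on all 8 arrays. ZNF229 rose by 0.95 (SE 0.196), ZNF569 by 0.81 (SE 0.172), ZNF222 by 0.79 (SE 0.152), ZNF283 by 0.78 (SE 0.158) and ZNF573, the gene that also rose in H1299, by 0.69 (SE 0.173). ZNF235 (0.59), ZNF234 (0.58), ZNF230 (0.48), ZNF607 (0.47), ZNF45 (0.46), ZNF566 (0.42), ZNF567 (0.40), ZNF227 (0.33) and ZNF225 (0.31) completed the calls.

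Allowing the S2sh7 effect to differ between the lines without a functional motor cDNA (GFP and ATPdead) and those with WT or BRD, a fit chosen after the pairs had been seen, separated the members further. With GFP and ATPdead 22 members rose and none fell, 12 in 19q13.12 and 10 in 19q13.31, beside 26.2% of all genes higher. With WT and BRD 14 rose and none fell, 4 and 10, beside 9.99% of all genes higher, and the count was 2 without the WT pair and 1 without the BRD pair. The effect was smaller with WT and BRD in 12 members, 9 of 21 in 19q13.12 and 3 of 15 in 19q13.31, beside 10.6% of all genes. Each of these values rests on 2 pairs per side and 2 residual degrees of freedom. All 4 shLuc arrays of ZNF529, ZNF585B and ZNF229 were under log2 5, the level used as the filter, so the sizes of their rises start from dim controls.

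ZNF529 rose by 2.97 (SE 0.0796) in the first pairs and by 1.17 in the second, a difference of -1.79 (SE 0.113, adjusted p = 0.000471). ZNF585B read 3.55 and 5.36 with GFP and 3.69 and 5.40 with ATPdead, but 3.34 and 3.83 with WT and 3.72 and 3.75 with BRD. The rise with GFP and ATPdead was thus nearly absent with WT and BRD, and the difference was -1.50 (SE 0.160, adjusted p = 0.00208). ZNF420 went from 5.07 to 6.11 with GFP and from 4.71 to 6.12 with ATPdead, and from 4.85 to 4.84 with WT and 4.90 to 5.02 with BRD (difference -1.17, adjusted p = 0.00314). ZNF585A showed the same contrast (-1.24, adjusted p = 0.00134). In 19q13.31 the members with a difference were ZNF229 (-0.85), ZNF283 (-0.70) and ZNF234 (-0.51). ZNF45 rose in both sets of pairs, by 0.60 and 0.32, and its difference did not pass. ZNF235 (0.52 and 0.65), ZNF227 (0.25 and 0.41) and ZNF225 (0.23 and 0.40) were called in both sets as well. ZNF570, ZNF571 and ZNF155 were called with GFP and ATPdead (0.54, 0.44 and 0.72) although all their A549 arrays were under log2 5. Averaged over both hairpins, WT and BRD against GFP and ATPdead changed no member and 0% of all genes. At unadjusted p under 0.05 (limma) there were 8 members and 11.7% of all genes.

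**Figure D4:**
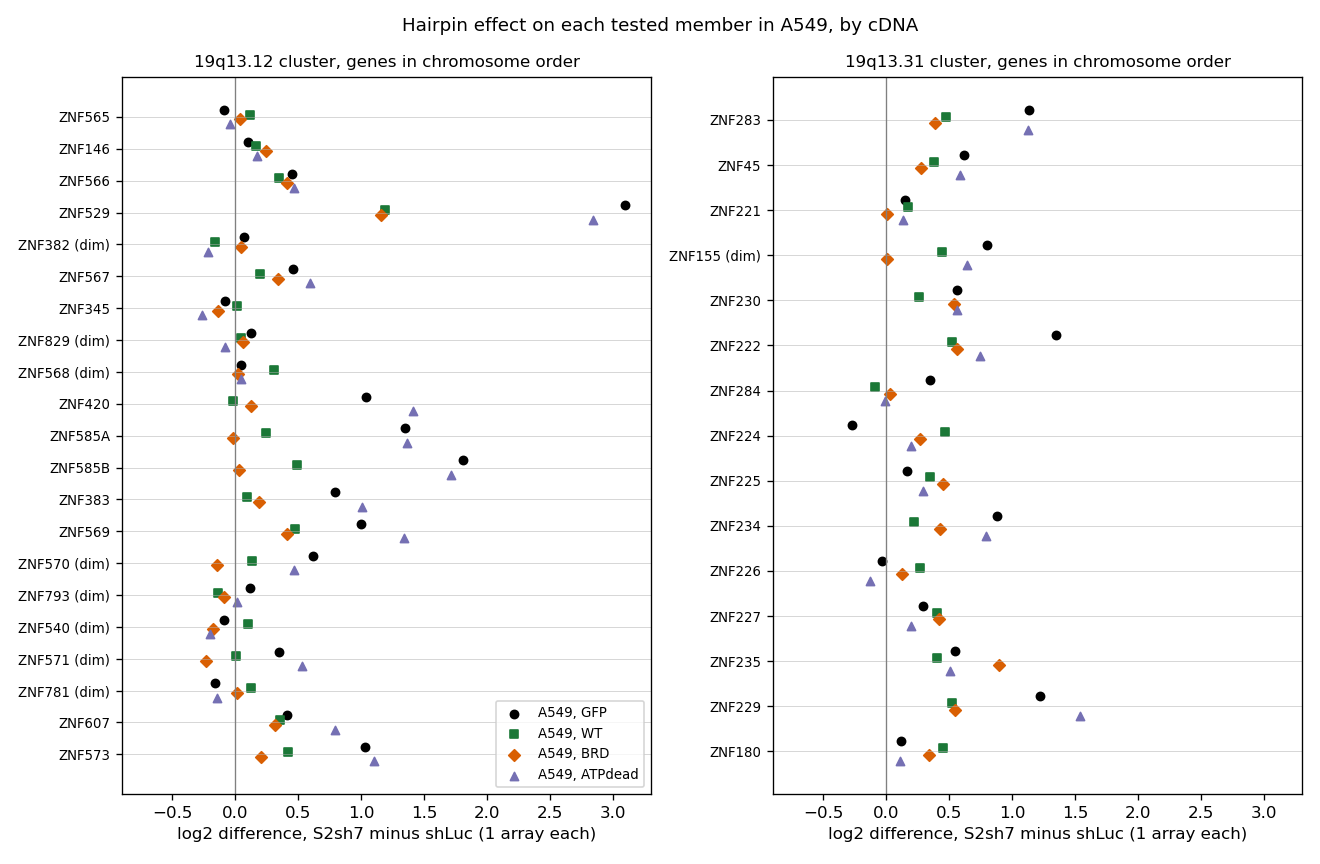
Log2 difference between the S2sh7 and the shLuc array in A549 (x axis) for each tested member in chromosome order, with 1 symbol per cDNA and no replicates; "dim" marks members above log2 5 on no A549 array. ZNF529 lies at the far right with GFP and ATPdead, and most symbols of 19q13.31 lie to the right of 0.

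The difference between the lines was tested on the 8 S2sh7 effects, 4 per line, a comparison added after the opposite directions had been seen. The 4 effects of a line come from different cDNAs, so the p-values here measure the spread between cDNAs. An H1299 effect is a difference of group means and an A549 effect one of single arrays. The effect was higher in A549 for 27 of 36 members, 14 of 21 and 13 of 15, and lower for none, beside 17.4% of all genes higher. Of these 27, ZNF382, ZNF829, ZNF568, ZNF570, ZNF571 and ZNF155 were over log2 5 on no A549 array and passed the filter through H1299 alone. Over the 4 A549 pairs their effects were -0.07 to 0.47 and none was called. Among genes over log2 5 on at least 3 A549 arrays, the count was 19 of 24 members. In 19 members all 4 effects were negative in H1299 and all 4 positive in A549, a count not made over all genes. ZNF45 had a mean effect of -0.78 in H1299 and 0.46 in A549 (difference 1.25, SE 0.103, adjusted p = 0.00038), and ZNF283 -0.65 and 0.78 (difference 1.43, SE 0.184, adjusted p = 0.00186). ZNF568, ZNF829 and ZNF382, under log2 5 on all A549 arrays, had effects of 0.10, 0.04 and -0.07 there. ZNF224, ZNF226, ZNF585A, ZNF585B, ZNF345, ZNF793, ZNF540, ZNF781 and ZNF573 did not pass.

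Pairs of members that share a divergent promoter could be set side by side. RefSeq windows overlapped on opposite strands in 6 pairs, all in 19q13.12, and 4 of them had a value for both genes. ZNF568 and ZNF829 both fell in H1299 with GFP (-1.29 and -0.53) and were under log2 5 on all A549 arrays. ZNF382 and ZNF529 both fell (-0.52 and -0.34), and in A549 only ZNF529 was called. ZNF569 and ZNF570 fell by 0.21 and 0.65, and in A549 had 0.81 and 0.27, of which the first passed. ZNF146 and ZNF565 were not called with GFP in H1299 (-0.06 and -0.18) or in A549 (0.17 and 0.01).

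The genes that lie between the members, not on the list, were examined by the same fit. In 19q13.31 all 3 tested neighbours fell in H1299 with GFP, ZNF404 (-0.77), LOC100505715 (-0.52) and ZNF112 (-0.50). In 19q13.12, 4 of 10 fell and 1 rose, with ZFP30 (-0.79) and ZFP82 (-0.52) first among the falls. Over the 4 A549 pairs, 3 of the 10 were higher, ZFP30 (0.33), ZNF527 (0.42) and ZNF875 (0.36), and none of the 3 in 19q13.31. With GFP and ATPdead alone, 6 of the 10 were higher, ZFP82 (1.22) among them, and 2 of the 3, ZNF404 (0.73) and LOC100505715 (0.56). Of 27 genes of the KRAB corepressor machinery, 5 rose and 1 fell in H1299 with GFP, with a median of 0.02, and the 18.5% that rose stood beside 13.6% of all genes. RBBP4, a histone chaperone, rose by 0.31 and ATF7IP, the partner of SETDB1, fell by 0.16. In A549, 5 rose (18.5%, beside 12% of all genes), DAXX (0.46) among them, and CHD3 fell by 0.61. Both shares are near the background. In the other H1299 comparisons more of the 27 rose, 8 with WT (29.6%, beside 14.9% of all genes) and 6 with BRD (22.2%, beside 11.1%). With ATPdead 6 rose (22.2%, beside 16.5%), and in each of these comparisons 3 fell. The shares were not tested, and nothing is read from them.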

How the data were processed

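RNA of H1299 and A549 cells had been hybridised to 32 HG-U133 Plus 2.0 arrays. The deposited values are linear intensity values from RMA, per the submitters' processing notes, which also name limma; both versions are not given in the sources used here. RMA corrects background and aligns distributions, so a shift common to all genes would not be seen. Median intensities were 26.4 to 27.3 in H1299 and 40.1 to 41.2 in A549.

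Values were taken to log2 without a pseudocount. Of 54675 probe sets 41097 had 1 symbol, 1801 several and 11777 none, and the brightest probe set over all arrays stood for a gene. Genes over log2 5 on at least 3 arrays were tested with limma 3.58.1 (R 4.3.3; Python 3.11.15 for tables), lines apart, with Benjamini-Hochberg adjustment over 14695 genes and a threshold of 0.05. H1299 had 1 mean per group, A549 an additive fit of cDNA and hairpin. The code was first tested on simulated data. The members and lists were chosen with earlier results of these data known. Named members were those called in any planned comparison with a log2 fold change of 0.3 or more in size, plus ZNF568 and ZNF155. The design had assumed deposited log2 values, and log2 was taken here instead. Protein sequences were not used here.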

Additional observations from a re-analysis of the deposited data

Results flagged for a closer look

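Effects that differed between groups by the limma test of the difference are given here as log2 values. In H1299 the S2sh7 effect was higher with BRD than with GFP for ZNF45 (0.33), ZNF155 (0.42) and ZNF230 (0.37), and with ATPdead for ZNF155 (0.47).

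In A549 the effect was lower with WT and BRD than with GFP and ATPdead for 12 members, ZNF529 (-1.79), ZNF585B (-1.50), ZNF585A (-1.24), ZNF420 (-1.17), ZNF229 (-0.85), ZNF383 (-0.76), ZNF573 (-0.75), ZNF569 (-0.73), ZNF283 (-0.70), ZNF571 (-0.55), ZNF570 (-0.55) and ZNF234 (-0.51). ZNF570 and ZNF571 were under log2 5 on all A549 arrays.

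The S2sh7 effect was higher in A549 than in H1299 for 27 members, lines and batches not being separable. In 19q13.12 the differences were those of ZNF529 (2.28), ZNF568 (1.22), ZNF383 (1.21), ZNF569 (1.05), ZNF566 (0.98), ZNF420 (0.97), ZNF571 (0.80), ZNF570 (0.79), ZNF607 (0.72), ZNF567 (0.59), ZNF829 (0.54), ZNF382 (0.42), ZNF146 (0.22) and ZNF565 (0.18). In 19q13.31 the differences were those of ZNF283 (1.43), ZNF45 (1.25), ZNF222 (1.17), ZNF229 (1.00), ZNF155 (0.97), ZNF230 (0.94), ZNF235 (0.73), ZNF234 (0.70), ZNF225 (0.66), ZNF221 (0.56), ZNF227 (0.47), ZNF284 (0.42) and ZNF180 (0.35). ZNF382, ZNF829, ZNF568, ZNF570, ZNF571 and ZNF155 were over log2 5 on no A549 array and passed the filter through H1299 alone, and over the 4 A549 pairs none of them was called.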

How the results depend on the processing

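No named member changed sign under any alternative, and the counts for the hairpin in H1299 stayed within 1.5 times their value in each. Leaving out 1 array gave 26 to 29 members with GFP, 21 to 26 with WT, 17 to 20 with BRD and 20 to 24 with ATPdead. It gave 2 to 3 for the BRD difference, 0 to 1 for the ATPdead difference, 1 for WT against GFP, 0 to 2 for BRD against GFP and 1 to 5 for ATPdead against WT. Leaving out an A549 pair gave 0 to 9 members over all pairs, 19 to 21 with GFP and ATPdead, 1 to 16 with WT and BRD, 9 to 13 for their difference. For the difference between lines, leaving out 1 of the 8 pairs of either line gave 23 to 29. The ATPdead difference (1 member) had 0 with the mean of all probe sets, no filter, a filter of log2 over 6, quantile normalization, centred arrays, the replicate block or only the arrays compared. WT against GFP (2) had 1 with no filter, 4 with quantile normalization, 1 with the replicate block and 0 with only the arrays compared. BRD against GFP (1) had 0 with no filter, 2 with the filter over 6, 5 with quantile normalization, 5 with centred arrays, 4 with trend and robust eBayes and 0 with only the arrays compared. ATPdead against WT (3) had 1 with no filter and 0 with only the arrays compared, and the BRD difference (3) had 5 with centred arrays, 5 with trend and robust eBayes and 1 with only the arrays compared. The cause was not tested. Replicate numbers did not pair the arrays: deviations of same-numbered arrays correlated from -0.285 to 0.281 (median -0.00735), and the block changed no other count by over 1.5 times. Of the named members' calls, 75 of 510 were lost on leaving out an array or pair, and 6 of 82 with the mean of probe sets.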

Other observations

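Zinc finger genes elsewhere on chromosome 19 were read by the same fits. In 19p12, 5 of 17 tested genes (29.4%) fell with S2sh7 in H1299 with GFP and none rose, with a median of -0.16, ZNF675 (-0.34) and ZNF85 (-0.31) first. In 19q13.41, 5 of 24 (20.8%) fell and none rose, with a median of -0.03, among them ZNF701 (-0.27) and ZNF480 (-0.27). Over all genes 16.1% were lower.

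Over the 4 A549 pairs, 1 of the 17 and 2 of the 24 were higher, ZNF614 by 1.25 and ZNF432 by 0.84, shares below the 12% of all genes. With GFP and ATPdead alone, 4 of the 17 (23.5%) and 10 of the 24 (41.7%) were higher, beside 26.2% of all genes. ZNF350 (1.85), ZNF614 (1.61) and ZNF432 (1.23) in 19q13.41 led these. In that cluster 6 of 24 (25%) had a smaller effect with WT and BRD, beside 10.6% of all genes. The effect was higher in A549 than in H1299 for 8 of the 17 (47.1%) and 6 of the 24 (25%), beside 17.4% of all genes. The difference between these clusters and the members was not tested.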
